A study of Arabidopsis thaliana with 9 samples.

Results

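The RPP4/RPP5/SNC1 cluster of Arabidopsis thaliana is a row of immune receptor genes on chromosome 4. Its 8 members were selected by gene ID from the 32833 genes in the expression data, as the neighbouring genes of the cluster that holds RPP4, SNC1 and RPP5, and all 8 were found. They are RPP4 (AT4G16860), AT4G16880, SNC1 (AT4G16890), AT4G16900, AT4G16920, AT4G16940, RPP5 (AT4G16950) and AT4G16960. The cluster was chosen for description because transcripts of RPP4, RPP5 and SNC1 had been seen as higher than in controls under flooding alone, in these same samples. Both comparisons with control thus took part in the choice, so the members' differences from control are given as a description. Counts of members past the threshold stand only beside the share over all genes and support nothing about the cluster.

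RNA was sequenced from shoots of 9 samples of the accession Columbia-0, with 3 samples in each of 3 groups. All plants were 4 weeks old, the labels give no transgene or mutation, and the rosettes of several plants were pooled in each sample. Control plants received no stress, submerged plants were kept in still water for 30 min, and flooded plants were kept for 30 min in water that flowed at 8 L/s. The comparison sets moving water beside still water. Per the study's methods, submergence took place in a plastic container, while flooded plants were anchored in an open channel. Flow, vessel and anchoring therefore cannot be told apart in a difference between both stresses.

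TIR-NLR proteins, the class to which most members belong, are receptors inside the plant cell. A Toll/interleukin-1 receptor (TIR) domain signals, a nucleotide-binding (NBS) domain switches the protein on, and leucine-rich repeats (LRR) take part in recognising molecules of a pathogen. RPP4 and RPP5 are known for resistance to the downy mildew pathogen Hyaloperonospora arabidopsidis, RPP5 from work in another accession, and SNC1 is known from a gain-of-function mutant with constant defence activity and small rosettes. Such receptors act through EDS1 and its partners and the synthesis of salicylic acid, and plants hold their levels low because excess receptor harms growth.

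The cluster spans 62.6 kb of chromosome 4 (chr4:9488466-9551028, TAIR10), and all 8 members lie on the minus strand. RefSeq describes 7 of them as disease resistance proteins of the TIR-NBS-LRR class. AT4G16880 is described as a leucine-rich repeat family protein only, and its coding sequence of 462 bases is the shortest, against 3006 bases in AT4G16960 and 4350 bases in RPP5. The members are close relatives of each other. Coding sequences of AT4G16940 and AT4G16960 were identical at 95.9% of aligned bases, those of AT4G16920 and RPP5 at 93.8%, those of RPP4 and AT4G16920 at 92.2% and those of SNC1 and RPP5 at 91.3%. The least similar pair was AT4G16900 and AT4G16940, at 75.6%.

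The likeness is visible in the stretch that encodes the P-loop, the part of the nucleotide-binding domain that holds the phosphates of the bound nucleotide. It is shown because it tells how little separates reads of one member from reads of another. The sequences below are 60 bases each, read 5′ to 3′ on the minus strand of the RefSeq genome (TAIR10.1, in which the members have the coordinates of the deposited annotation), and capitals mark the 8 codons of the P-loop motif.
RPP4 (chr4:9491862-9491921): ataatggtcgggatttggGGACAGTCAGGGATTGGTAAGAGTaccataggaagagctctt
SNC1 (chr4:9504704-9504763): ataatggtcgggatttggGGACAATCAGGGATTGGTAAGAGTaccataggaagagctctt
AT4G16900 (chr4:9515732-9515791): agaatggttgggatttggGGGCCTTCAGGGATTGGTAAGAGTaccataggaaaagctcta
AT4G16920 (chr4:9524869-9524928): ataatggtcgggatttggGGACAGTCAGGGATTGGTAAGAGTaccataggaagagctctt
AT4G16940 (chr4:9536805-9536864): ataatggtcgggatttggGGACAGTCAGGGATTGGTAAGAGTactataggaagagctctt
RPP5 (chr4:9543528-9543587): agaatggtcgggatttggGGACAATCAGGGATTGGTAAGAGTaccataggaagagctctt
AT4G16960 (chr4:9550170-9550229): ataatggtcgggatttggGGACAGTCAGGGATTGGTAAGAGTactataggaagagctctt
The stretch of RPP4 equals that of AT4G16920, and the stretch of AT4G16940 equals that of AT4G16960. Against SNC1, RPP4 differed at 1 of the 60 bases, RPP5 at 1, AT4G16940 at 2 and AT4G16900 at 7. The motif was not found in AT4G16880.

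**Figure D1:**
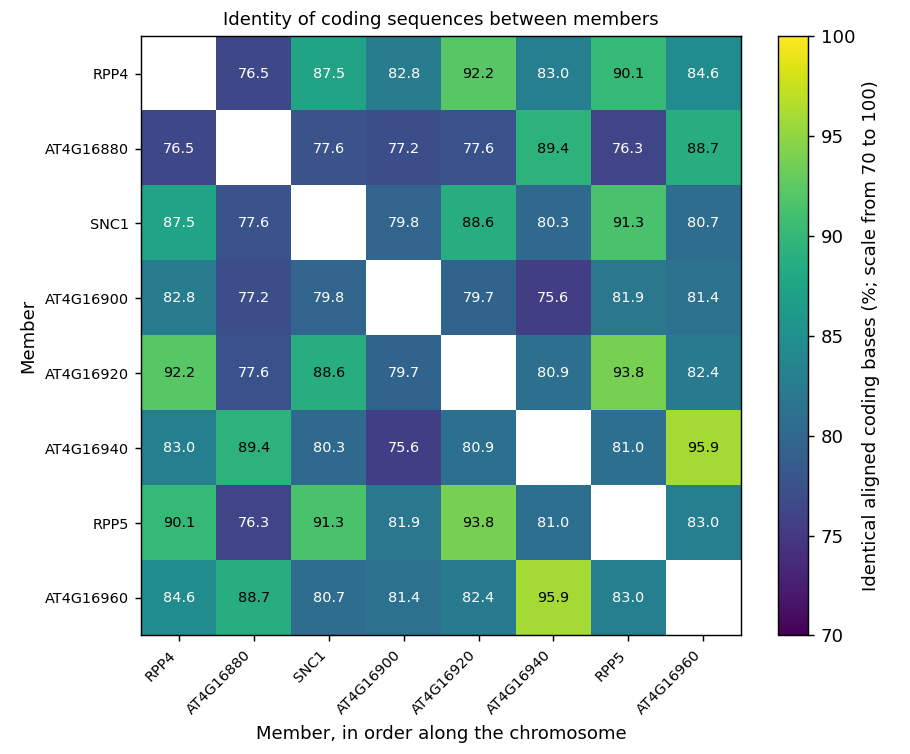
Percent of identical bases between pairs of members, over bases aligned in both, in a joint alignment of the members' longest coding sequences. Both axes list the 8 members in their order along the chromosome, each cell is 1 pair and the colour scale runs from 70 to 100%; AT4G16940 and AT4G16960 are the most alike at 95.9%, and AT4G16900 and AT4G16940 the least alike at 75.6%.

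Such copies can share reads, so the split of reads between members is uncertain, and how the authors treated reads that fit several places is not given in the sources used here. Of all 50-base windows in the exons of a member, between 10.6% (AT4G16900) and 56.7% (AT4G16960) occurred a further time in the genome. The share was 45.1% in RPP5, 39.4% in AT4G16920, 29.8% in AT4G16940, 29.1% in RPP4, 21.2% in SNC1 and 11.1% in AT4G16880. For AT4G16960, 55.4% of its windows also occurred in AT4G16940, and for AT4G16920, 27.0% also occurred in RPP5. How much of any difference below comes from shared reads was not tested.

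Expression was deposited as FPKM (fragments per kilobase of transcript, scaled to the depth of the sample), which allows levels to be compared between genes per length but does not give the read count, so the depth behind a single value is unknown. The stressed columns do not name their stress and were assigned to submergence and flooding from panel headings in the study's supplement. The FPKM of all genes summed to between 752249 and 786474 per sample, and 7662 genes were listed at 0 in every sample. Fold changes below are on the log2(FPKM + 0.1) scale, each comparison being fitted with limma to the 6 samples of its groups, over genes whose mean reached 0.5 FPKM. Green leaf markers summed to 11149, 13477 and 12228 FPKM in the control samples, to 11585, 9021 and 10653 in submergence and to 9552, 8705 and 11273 in flooding, with LHCB2.1 the only one of 4 that passed, as higher in both stresses (0.70 and 0.62). Epidermis and guard cell markers summed to 179, 115 and 97.3 FPKM in control, to 238, 155 and 95.7 in submergence and to 173, 248 and 72.2 in flooding, while the guard cell genes MYB60 (log2 fold change -0.83 in flooding and -0.52 in submergence) and FAMA (-0.39 in flooding) passed as lower, 2 of 4 markers in flooding and 1 of 4 in submergence. Vascular markers summed to between 42.9 and 67.9 FPKM with 0 of 3 called in either stress, and root markers to between 0.05 and 0.24 FPKM, with RHD6 and EXPA7 of root hairs at 0 in all samples. Shoot apex and flower markers summed to 3.14, 0.04 and 1.94 FPKM in replicates 1, 2 and 3 of control, with CLV3 at 0 in all samples. In the same order they summed to 9.74, 4.71 and 0.06 in submergence and to 4.54, 6.51 and 0.08 in flooding. The part of these markers in the members' values was not tested. In pooled shoots, fewer cells of a type and less RNA per cell cannot be told apart.

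Replicate 1 of submergence had the lowest value of its group for 6 of the 8 members (RPP4, AT4G16880, SNC1, AT4G16900, RPP5 and AT4G16960). It was the lowest of its group for 29.9% of all genes with a mean of at least 0.5 FPKM. This was not particular to the cluster. The TIR-NBS gene ADR2, outside it, was at 46.1, 86.0 and 101.8 FPKM in submergence replicates 1, 2 and 3. EDS1 was highest in replicate 1 instead (43.7, 32.3 and 41.4 FPKM). Submergence replicate 1 also had the highest sum of shoot apex and flower markers, 9.74 FPKM, and the part of this difference in the members' values was not tested. Summed over the 8 members, FPKM were between 108 and 113 in the control samples, 108, 155 and 143 in submergence replicates 1, 2 and 3, and between 163 and 191 in the flooding samples. Replicate 1 of flooding had the highest value of its group for 6 of the 8 members, against 33.7% of genes. Outside the cluster, EDS1 was also highest there (74.0, 57.3 and 69.0 FPKM in flooding replicates 1, 2 and 3). ADR2 was highest in replicate 3 instead (109.1, 90.0 and 118.7 FPKM).

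SNC1 had the highest level of the cluster in every group, followed by RPP5 and RPP4. In control shoots the mean was 47.4 ± 2.78 FPKM for SNC1, 30.9 ± 2.54 for RPP5, 17.3 ± 0.607 for RPP4 and 7.76 ± 0.433 for AT4G16900 (SD, n = 3), and neighbours in this order did not overlap. AT4G16960 (3.29 ± 0.417) and AT4G16880 (2.79 ± 0.409) came next and overlapped. AT4G16920 (0.853 ± 0.10) and AT4G16940 (0.470 ± 0.140) had the lowest levels. The copies most alike in sequence were far apart in level: in the control samples the FPKM of RPP5 were between 31.1 and 39.4 times those of AT4G16920, and those of AT4G16960 between 6.18 and 9.15 times those of AT4G16940.

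In submergence the ranges of RPP5 and RPP4, of AT4G16960 and AT4G16900, and of AT4G16920 and AT4G16940 overlapped. In flooding no neighbours in the order overlapped. AT4G16960 came after AT4G16900 in control and before it in both stresses, though their ranges overlapped in submergence.

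SNC1 was measured at 50.6, 45.3 and 46.3 FPKM in control replicates 1, 2 and 3, at 52.7, 59.4 and 62.2 in submergence and at 77.8, 64.0 and 74.1 in flooding. The 3 groups were fully separated, with control lowest and flooding highest. The log2 fold change against control was 0.60 (SE 0.10) in flooding, a ratio of 1.51, and 0.29 (SE 0.09) in submergence, a ratio of 1.22.

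RPP4 was measured at 16.6, 17.5 and 17.8 FPKM in control, at 15.2, 31.7 and 26.3 in submergence and at 39.8, 30.7 and 33.9 in flooding. All flooding samples lay above all control samples, while submergence replicate 1 lay below the controls and the other two samples of that group above them. The log2 fold change was 1.00 (SE 0.11) in flooding, a ratio of 1.99, and 0.43 (SE 0.25) in submergence. The latter became 0.74 without submergence replicate 1 and 0.21 without replicate 2.

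RPP5 was measured at 29.6, 29.4 and 33.9 FPKM in control, at 25.1, 41.8 and 32.6 in submergence and at 46.8, 45.6 and 44.2 in flooding. The flooding samples were closest to each other and lay above every other sample, while the submergence samples lay on both sides of the controls. The log2 fold change was 0.56 (SE 0.09) in flooding, a ratio of 1.47, and 0.07 (SE 0.18) in submergence, which became 0.26 without submergence replicate 1 and -0.11 without replicate 2.

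AT4G16960, a TIR-NBS-LRR gene with no symbol in the files, had the largest fold change of the members in both stresses. Its FPKM were 3.77, 3.08 and 3.02 in control, 6.03, 10.4 and 10.4 in submergence and 15.1, 12.1 and 12.7 in flooding. The 3 groups did not overlap, and the order was that seen for SNC1. The log2 fold change was 1.98 (SE 0.14) in flooding, a ratio of 3.95, and 1.38 (SE 0.23) in submergence, a ratio of 2.60. Its near copy AT4G16940 was measured at 0.61, 0.47 and 0.33 FPKM in control, at 0.48, 0.43 and 0.88 in submergence and at 0.29, 0.32 and 0.30 in flooding. It was thus listed lower in flooding than in any sample of the other groups, at levels too low to pass the filter in the comparisons with flooding. The ratio of AT4G16960 to AT4G16940 was between 6.18 and 9.15 in control, between 11.8 and 24.1 in submergence and between 37.7 and 52.2 in flooding, and the sum of both FPKM was at most 4.38 in control and at least 12.4 in flooding.

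The remaining members did not share this pattern. AT4G16900 was measured at 8.12, 7.88 and 7.28 FPKM in control, at 6.05, 7.60 and 6.97 in submergence and at 6.96, 6.32 and 6.44 in flooding. Its flooding samples lay below the controls, with a log2 fold change of -0.24 (SE 0.10), and its submergence samples overlapped both groups (-0.18, SE 0.11, and -0.09 without submergence replicate 1).

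AT4G16920 was measured at 0.95, 0.75 and 0.86 FPKM in control, at 1.02, 0.78 and 0.75 in submergence and at 0.54, 0.47 and 0.41 in flooding. All flooding samples lay below all others, a log2 fold change of -0.73 (SE 0.29) against control, while control and submergence overlapped (-0.01, SE 0.24). Its near copy RPP5 moved the other way, and the ratio of RPP5 to AT4G16920 was between 86.7 and 108 in flooding against at most 39.4 in control.

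AT4G16880, the short LRR gene, was measured at 2.69, 3.24 and 2.44 FPKM in control, at 1.46, 2.83 and 2.54 in submergence and at 3.55, 3.20 and 4.15 in flooding. Control overlapped both stresses, and the log2 fold change was 0.37 (SE 0.17) in flooding and -0.32 (SE 0.26) in submergence. The submergence value became -0.046 without submergence replicate 1 and -0.50 without replicate 2. It lies between RPP4 and SNC1, 145 bases from RPP4.

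**Figure D2:**
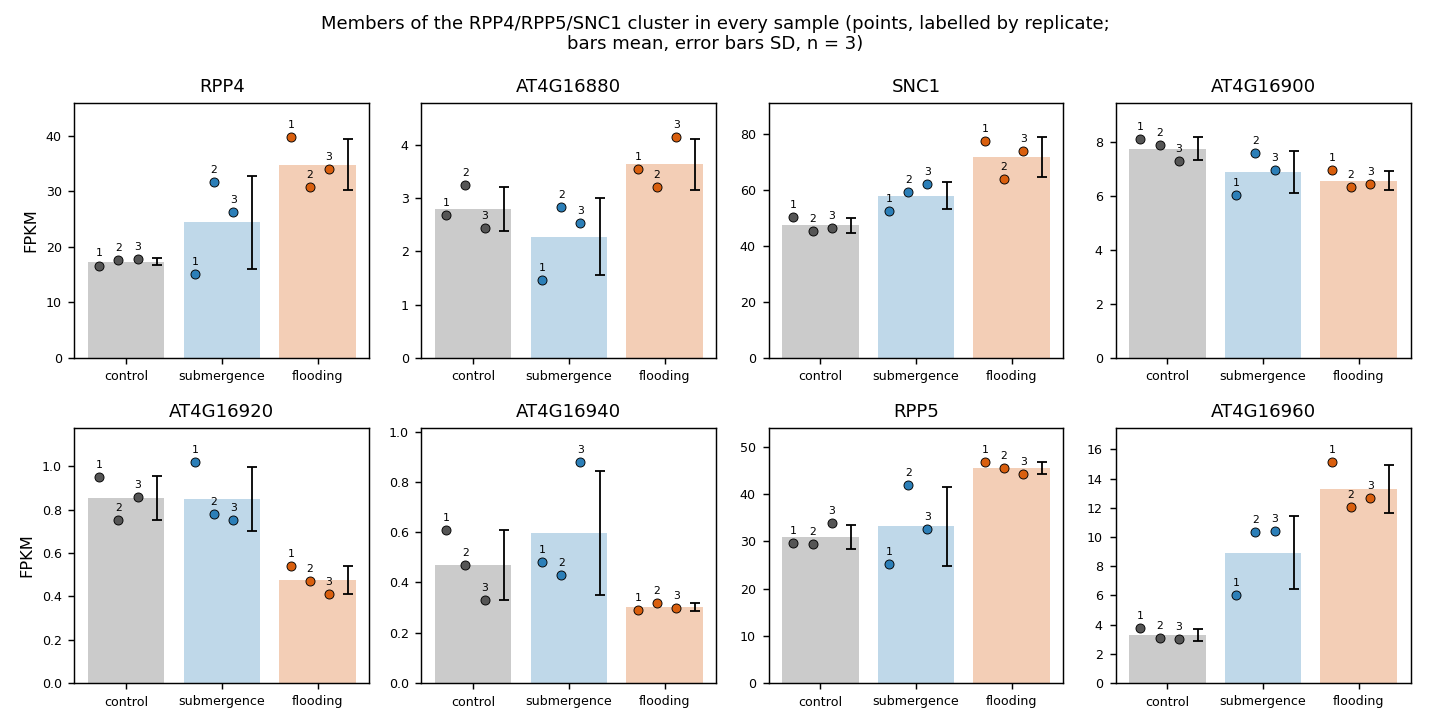
FPKM of the 8 members (vertical axes, 1 panel per gene, each from 0) in control, submergence and flooding samples. Points are samples labelled by replicate number, bars are means and error bars SD (n = 3); SNC1 and AT4G16960 have 3 separate groups, and submergence replicate 1 is the lowest point of its group in 6 of the 8 panels.

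Against all genes, 4 of the 7 members tested passed an adjusted p of 0.05 as higher in flooding than in control (RPP4, SNC1, RPP5 and AT4G16960) and 0 passed as lower, where 11.4% of the 18806 genes tested passed as higher and 17.2% as lower. In submergence 1 of 8 members passed as higher (AT4G16960) and 0 as lower, against 9.03% and 8.45% of 18814 genes. Groups did not overlap for 4 members higher and 2 lower in flooding (background 15.8% and 30.8%), and for 2 higher and 0 lower in submergence (background 16.6% and 21.9%). Nothing is read from these counts, since both comparisons with control took part in the choice of the cluster. The median log2 fold change was 0.56 over the members tested and -0.10 over all genes in flooding, and 0.17 against -0.03 in submergence. Median-of-ratios rescaling turned the balance over all genes in flooding from 2137 higher and 3229 lower to 2622 higher and 2299 lower, and quantile normalization turned that in submergence from 1698 higher and 1590 lower to 1556 and 2200.

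**Figure D3:**
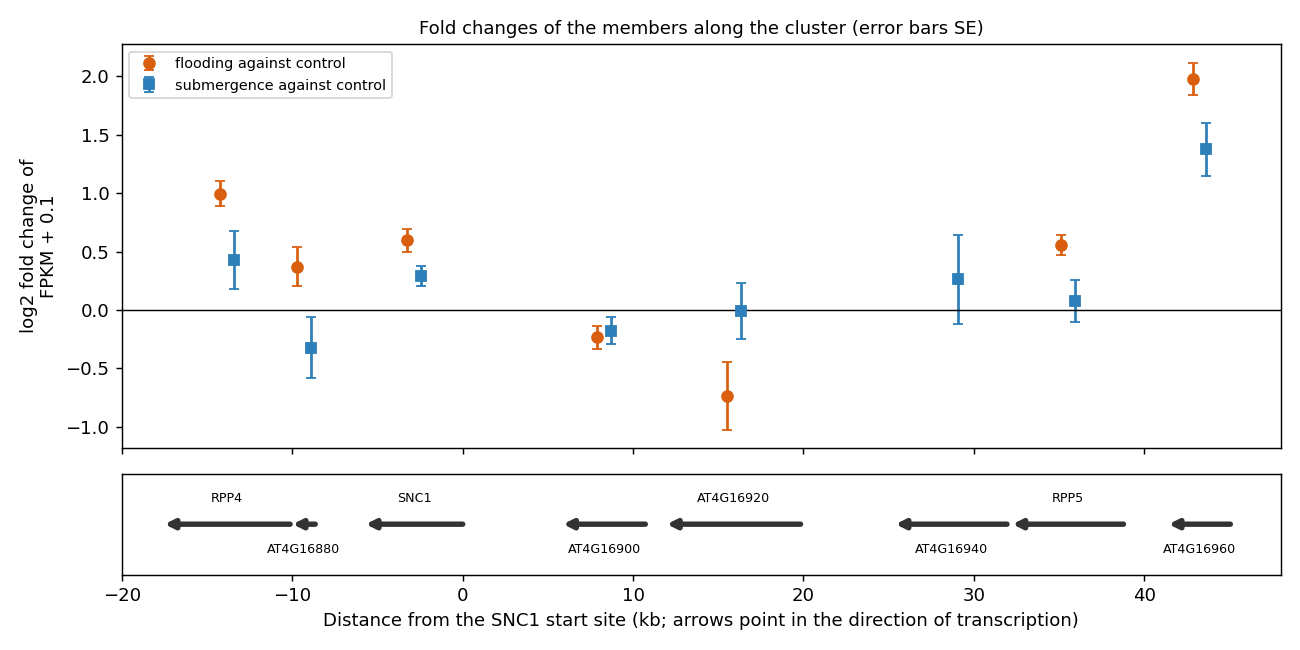
Log2 fold change of FPKM + 0.1 against control (upper panel, error bars SE) in flooding (circles) and submergence (squares), with the members at their distance in kb from the start site of SNC1 (lower panel, arrows in the direction of transcription). The highest points are at AT4G16960, at 1.98 and 1.38, at the far end of the cluster from RPP4; AT4G16940 has no flooding value because it was not tested there.

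Both stresses were also compared directly, on the samples that both comparisons with control had used. The choice of RPP4, RPP5 and SNC1 as higher in flooding alone favours a difference here. The log2 difference of flooding from submergence was 0.57 (SE 0.27) for RPP4, 0.31 (SE 0.11) for SNC1, 0.49 (SE 0.18) for RPP5, 0.60 (SE 0.23) for AT4G16960, 0.69 (SE 0.26) for AT4G16880, -0.72 (SE 0.31) for AT4G16920 and -0.06 (SE 0.12) for AT4G16900. None of the 7 members tested passed by limma, with Benjamini-Hochberg adjusted p between 0.289 (SNC1 and RPP5) and 0.894 (AT4G16900). Of all 18864 genes tested 0 passed (0.0%), where 2780 genes (14.7%) had an unadjusted p under 0.05, 4 of the 7 members among them. Groups did not overlap for 4 members higher in flooding (AT4G16880, SNC1, RPP5 and AT4G16960) and for 1 lower (AT4G16920), against 6.2% and 15.4% of genes. Without submergence replicate 1 the log2 difference was 0.26 for RPP4, 0.30 for RPP5, 0.35 for AT4G16960 and 0.42 for AT4G16880.

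Between the members lie 10 further genes, of which 2 passed the filter on low values. AT4G16957, a protein-coding gene with no symbol, 61 bases from AT4G16960 and 34 bases from RPP5 on the same strand, was measured at 3.22, 3.34 and 2.81 FPKM in control, at 6.41, 9.39 and 8.71 in submergence and at 15.8, 10.5 and 10.2 in flooding. Its groups did not overlap, and its log2 fold change was 1.90 in flooding (SE 0.18, adjusted p = 0.000261 by limma) and 1.34 in submergence (SE 0.16, adjusted p = 0.00302). These values were close to those of AT4G16960. Whether any of its reads belong to the transcripts on either side was not tested. AT4G16892, a noncoding RNA gene 349 bases from SNC1, did not pass (log2 fold change 0.33 in flooding, SE 0.30, adjusted p = 0.464).

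Within 50 kb of either end of the cluster, 2 of 23 genes tested were higher and 4 lower in flooding, and 3 were higher and 0 lower in submergence, with medians of -0.01 and 0.06. The higher genes in flooding were AT4G16820, named as a phospholipase A1 gene of the PLA-I family (log2 fold change 3.51, SE 0.27), and VRN2, a Polycomb group protein of vernalization (0.33, SE 0.09), whose call was lost under 7 of 15 alternatives. Both also passed as higher in submergence (1.94, SE 0.53, and 0.41, SE 0.09), calls lost under 9 of 13 and 6 of 15 alternatives. The 4 lower ones were AT4G16790, AT4G17010, FIP2 and AT4G17070, with log2 fold changes between -0.53 and -0.37. Their calls were lost under 9 of 15 alternatives for AT4G16790, 10 for AT4G17010, and 1 each for FIP2 and AT4G17070. RLM3, a TIR gene beyond AT4G16960, had 158 FPKM in control, 201 in submergence and 168 in flooding, and passed as higher in submergence (log2 fold change 0.34, SE 0.10, adjusted p = 0.0483 by limma) and not in flooding, a call lost under 12 of 15 alternatives (adjusted p between 0.0243 and 0.154). Its difference between the stresses did not pass (adjusted p = 0.392).

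Receptor genes of the same kind elsewhere in the genome were counted beside the members. A set of 97 genes outside the cluster that RefSeq describes as TIR-NBS proteins, a set chosen after the files had been seen, had 66 tested members in flooding. Of these 35 (53.0%) were higher and 4 lower than in control, with a median log2 fold change of 0.60 and a range from -0.91 to 4.70. In submergence 35 of 65 (53.8%) were higher and 1 lower, with a median of 0.53. The members' medians were 0.56 and 0.17, and whether the members differ from this set was not tested. The choice of RPP4, RPP5 and SNC1 as higher in flooding alone favours a low value of the members in submergence. In flooding against submergence 0 of 68 passed by limma, and 16 higher and 4 lower had an unadjusted p under 0.05.

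Among 15 named TIR-NLR genes, 14 of them tested, 7 were higher and 1 lower in flooding, and 8 higher and 0 lower in submergence. All of the 15 but DAR4 (known as CHS3) also belong to the TIR-NBS set above, so these counts largely repeat genes counted there. ADR2, also known as WRR4 and a receptor for white rust, changed most, from 14.7 FPKM in control to 77.9 in submergence and 105.9 in flooding (log2 fold change 2.83, SE 0.12, in flooding). RPS6, which recognises a bacterial effector, had log2 fold changes of 1.43 (SE 0.13) in flooding and 0.98 (SE 0.17) in submergence. AT1G17600, known as SOC3, and CHS1, which act together, had 1.42 (SE 0.21) and 0.87 (SE 0.17) in flooding and 0.96 and 0.53 in submergence, where the calls were lost under 6 and 10 of 15 alternatives. AT5G46520, known as VICTR, had 1.07 (SE 0.19) in flooding and 0.57 (SE 0.16, adjusted p = 0.0552 by limma) in submergence, and AT5G11250, known as BNT1, had 0.78 (SE 0.14) in flooding and 0.35 in submergence (lost under 8 of 15). RPP1, a further downy mildew receptor, had 0.85 (SE 0.10) and 0.68 (SE 0.10). CSA1 was lower in flooding (-0.38, SE 0.10), a call lost under 7 of 15 alternatives, and RPS4, which acts as a pair with RRS1, did not pass in either stress.

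Receptors with a coiled coil in place of the TIR domain (CC-NLR) moved in both directions. Of 10 tested, 3 were higher and 3 lower in flooding, and 3 higher and 1 lower in submergence, with medians of -0.16 and 0.02. RPS2, which guards RIN4, rose with a log2 fold change of 1.71 (SE 0.14) in flooding, and RPP13L4, known as ZAR1, by 1.47 (SE 0.15). RPM1, a further guard of RIN4, rose by 0.97 (SE 0.16). SUMM2, which guards a MAP kinase cascade, fell by 0.88 on the log2 scale, RPP8 fell by 0.38 (lost under 5 of 15 alternatives) and AT1G58602, known as RPP7, by 0.33 (lost under 9 of 15).

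Most genes that carry the signal of TIR-NLR receptors were higher in both stresses. Of 9 genes for EDS1, its partners and the helper receptors, 7 were higher and 0 lower in flooding, and 6 higher and 0 lower in submergence, with median log2 fold changes of 1.24 and 0.77. EDS1, the lipase-like protein on which TIR-NLR signalling depends, was measured at 26.4, 20.5 and 21.8 FPKM in control, at 43.7, 32.3 and 41.4 in submergence and at 74.0, 57.3 and 69.0 in flooding (log2 fold changes 0.77 and 1.54). PAD4, its partner, rose by 2.40 (SE 0.16) in flooding and 1.48 (SE 0.19) in submergence. The helper receptors ADR1-L1 and ADR1-L2 rose by 1.35 and 1.29 in flooding. SAG101, a further partner of EDS1, rose by 1.24 (SE 0.12), and AT5G66910 and AT5G66900, helper receptors of the NRG1 family, rose by 0.87 (SE 0.19, lost under 2 of 15 alternatives) and 0.74 (SE 0.11), while ADR1 itself (0.54, adjusted p = 0.0757 by limma) did not pass.

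Of 9 tested genes of salicylic acid synthesis and output, 6 were higher and 0 lower in flooding, and 4 higher and 0 lower in submergence. CBP60G and SARD1, transcription factors of salicylic acid synthesis, rose by 3.11 (SE 0.12) and 2.98 (SE 0.14) in flooding. PBS3, DTX47 (known as EDS5) and EDS16 (known as ICS1), which make salicylic acid or carry its precursor, rose by 1.95 (SE 0.30), 1.64 (SE 0.19) and 0.69 (SE 0.10). NPR1, a salicylic acid receptor, rose by 0.67 (SE 0.10). The late outputs PR1, BGL2 (known as PR2) and PR5 did not pass in either stress (adjusted p between 0.0736 and 0.963 by limma). PR5 was at -0.82 (SE 0.26) in submergence, all samples below the controls, and at -0.23 (SE 0.36) in flooding, where groups overlapped. PR1 varied widely within groups, at 17.6, 17.4 and 92.8 FPKM in submergence.

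Genes known to hold SNC1 and its relatives in check, or to fold them, moved in both directions. Of 18 tested, 4 were higher and 3 lower in flooding, and 3 higher and 1 lower in submergence. CPR1 encodes the F-box protein that marks SNC1 for breakdown. Its FPKM were 25.4, 26.0 and 26.0 in control, 22.6, 19.2 and 20.6 in submergence and 15.6, 14.5 and 14.1 in flooding. The 3 groups were separate, with log2 fold changes of -0.80 (SE 0.08, adjusted p = 0.000303 by limma) in flooding and -0.31 (SE 0.08, adjusted p = 0.0427) in submergence. Stressed samples lay below all controls for 30.8% of genes in flooding and 21.9% in submergence. Whether the CPR1 level bears on SNC1 transcripts was not tested. The submergence call was lost under 10 of 15 alternatives, with adjusted p by limma between 0.0163 and 0.144. BON1 and its partner BAP1, whose loss is known to activate SNC1, rose by 2.89 (SE 0.14) and 5.08 (SE 0.42) in flooding and by 2.06 and 3.85 in submergence. SGT1A, a cochaperone of NLR folding, rose by 1.17 in flooding and 0.86 in submergence. The chaperone HSP90-1 rose by 0.81 (SE 0.12) in flooding (lost under 1 of 15 alternatives). MPSR1, known as SNIPER2 and a ubiquitin ligase, fell by 0.65 (SE 0.16) and TRAF1B, known as MUSE13 and an adaptor of receptor breakdown, by 0.39 (SE 0.09) in flooding, each lost under 3 of 15.

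Of 18 genes known to be needed for, or to modify, SNC1 expression and the autoimmunity of its mutant, 0 were higher in either stress, and 2 were lower in flooding and 1 in submergence. At an unadjusted p under 0.05 by limma the counts were 0 higher in either stress, 5 lower in flooding and 1 lower in submergence, and the median log2 fold changes were -0.15 and -0.03. MOS2, an RNA-binding nuclear protein, was the largest, at 44.8, 40.2 and 43.8 FPKM in control, 23.6, 21.1 and 20.7 in submergence and 16.7, 18.9 and 15.5 in flooding. It fell by 1.33 on the log2 scale in flooding and by 0.98 in submergence. CYCL1-1, known as MOS12, fell by 0.43 in flooding. MOS1, AGO1, RDR6 and DCL4, which act on SNC1 transcription or on small RNAs of NLR genes, did not pass.

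**Figure D4:**
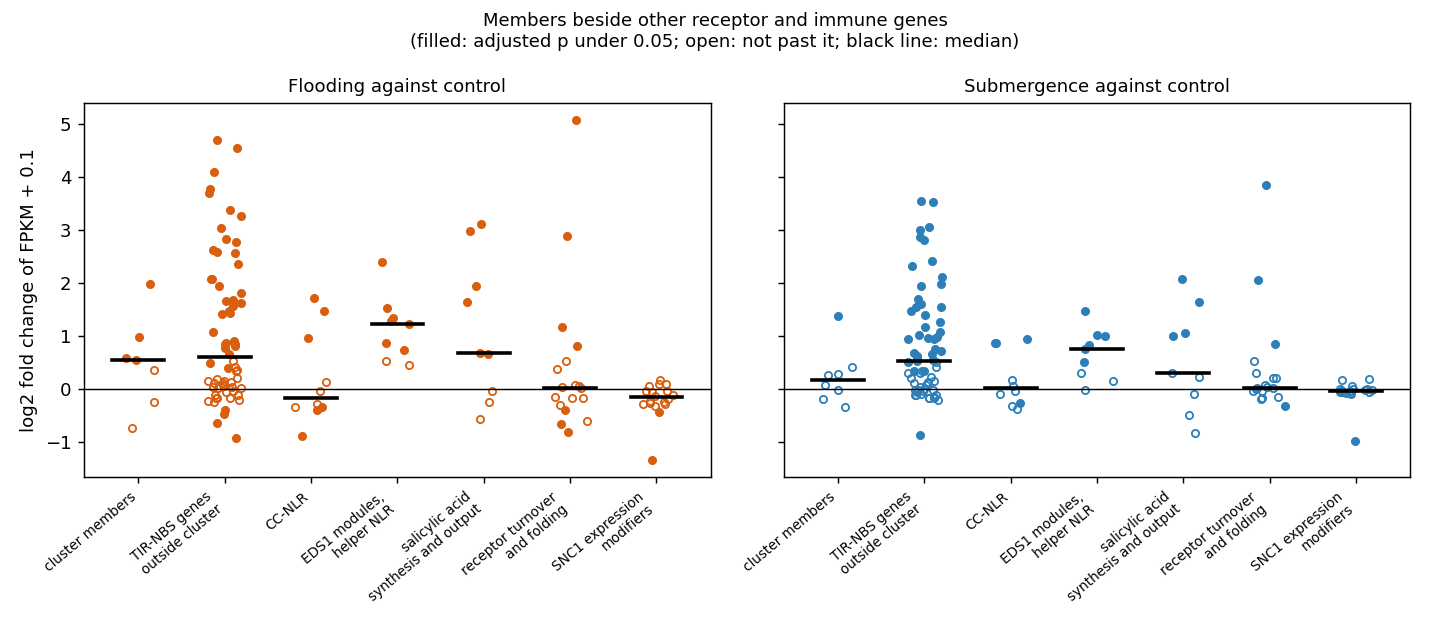
Log2 fold change of FPKM + 0.1 against control (vertical axis) in flooding (left) and submergence (right) for the tested genes of the cluster and of 6 other sets. Each point is a gene, filled where the adjusted p was under 0.05, and black lines are medians. The median of the members is 0.56 in flooding and 0.17 in submergence, and that of TIR-NBS genes outside the cluster 0.60 and 0.53. The members were chosen with both comparisons in view.

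Genes outside the cluster were ranked by how closely their log2 values, centred on their own mean over the 9 samples, followed those of SNC1. The 5 closest genes with a mean of at least 5 FPKM were SPL1, AT5G47970, SCL11, AT1G03370 and TOL4, with root mean square differences between 0.0699 and 0.0752 on the log2 scale. Members of the cluster, which were not picked for closeness, were at 0.196 for RPP5, 0.278 for RPP4, 0.338 for AT4G16880 and at most 0.618 for the others. The 5 genes were picked as the closest of 12990, so their values cannot tell whether the members follow SNC1 closely. This describes likeness over 9 samples of 3 groups.

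Sequence before the start sites was searched for the W-box, the motif bound by WRKY transcription factors, which act in defence. The motif was taken as TTGACC or TTGACT on either strand in the 250 bases before the start of each gene. It was found before 1 of the 8 members, SNC1, and before 28.4% of 27419 genes. The SNC1 stretch is shown for this match, which is in capitals.
SNC1 (chr4:9505973-9506222, TAIR10.1, minus strand): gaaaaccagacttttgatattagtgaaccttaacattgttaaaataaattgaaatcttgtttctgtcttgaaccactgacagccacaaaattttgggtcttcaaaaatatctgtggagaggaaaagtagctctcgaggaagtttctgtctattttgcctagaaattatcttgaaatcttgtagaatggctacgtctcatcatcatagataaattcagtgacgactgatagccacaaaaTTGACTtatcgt
The match begins 12 bases before the start site. RPP4, whose fold change in flooding was larger than that of SNC1, has only 145 bases between its start and AT4G16880, shown for comparison and without a match.
RPP4 (chr4:9495838-9495982, TAIR10.1, minus strand): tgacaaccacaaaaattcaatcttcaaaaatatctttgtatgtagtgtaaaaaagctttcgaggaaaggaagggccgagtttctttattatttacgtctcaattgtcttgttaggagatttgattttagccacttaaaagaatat
A match is a description of the letters and does not show a site in use, and the windows of 5 members run into a neighbouring gene.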

How the data were processed

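Libraries enriched for poly(A) RNA were made with a stranded kit from pooled rosettes, with 3 biological replicates per group. Per the study's methods, the authors quality-filtered the reads, aligned them to TAIR10 (STAR) and counted reads per gene (featureCounts), and used DESeq2 1.20.0 on the counts. The authors deposited FPKM, 1 column per sample, scaled to total counts and transcript length. The deposited name refers to RSEM, and which tool made the FPKM was not settled. The strand setting is not given in the sources used here. Read counts were not used here, so no test on counts was run. The deposited gene span served only for matching, and 0 columns of sample values were left unused. Stressed columns were assigned to a stress from the panel headings of a supplementary plot and to replicates by their digit.

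Each comparison was fitted with limma 3.58.1 in R 4.3.3 (lmFit, eBayes with trend) to log2(FPKM + 0.1), leaving out genes with a mean under 0.5 FPKM over its 6 samples. Calls needed a Benjamini-Hochberg adjusted p under 0.05 over all genes tested (two-sided). The fit was tested on simulated data. Since the depth behind an FPKM value is unknown, precision is given as SD or SE over samples. The median SD of log2 values was 0.11 in control, 0.17 in submergence and 0.19 in flooding.

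The members and gene lists were chosen with earlier results of these data known. Genes named are the members, all genes between them or within 50 kb, from each list up to 6 genes called in flooding by size of change, and the 5 genes most like SNC1. AT5G11250, CSA1, AT5G66900 and TRAF1B, called beyond those 6, and genes of the lists named as not past the threshold were picked after their values were seen. Of 32548 genes matched to RefSeq (TAIR10.1), 99.95% had the same start and end, as did all 8 members. Coding sequences were aligned with MAFFT 7.526, and Python 3.11.15 with pandas 2.3.3, numpy 2.4.6 and matplotlib 3.10.9 served for tables and figures. Alternatives tried were a pseudocount of 1, the low-value filter removed or set at 2 FPKM, scaling by median of ratios or quantiles, eBayes without trend, a joint fit of all 9 samples, a block for the replicate number, a minimum fold of 1.5, each sample left out and a longer W-box. The set of 97 TIR-NBS genes was added after the data were seen.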

Additional observations from a re-analysis of the deposited data

How the results depend on the processing

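Members were chosen with these comparisons in view, so their calls are given as counts only and are no sign of stability. Over all genes, 2137 (11.4%) passed as higher in flooding and 1698 (9.03%) in submergence in the main fit. The former count stayed within a factor of 1.5 under all 15 alternatives, the latter under 11 of 15. A fold change of at least 1.5 left 3 members called as higher in flooding, without RPP5. AT4G16920 passed as lower in flooding with quantile normalization and with eBayes without trend (1 member called lower under each). In submergence 0 members passed as higher with no filter on low values, since AT4G16960 no longer passed, and leaving out each sample gave between 1 and 3 members, 3 without submergence replicate 1, when RPP4 (0.74) and SNC1 (0.36) passed too. The direction turned for values near 0. In submergence AT4G16920 became 0.011 with median-of-ratios rescaling and between -0.14 and 0.064 with each sample left out, above 0 without control replicate 1 or submergence replicates 2 or 3. RPP5 was between -0.11 and 0.26, below 0 without submergence replicate 2. In flooding against submergence AT4G16900 became 0.015 with median-of-ratios rescaling, 0.017 with quantile normalization and between -0.15 and 0.016 with each sample left out, above 0 without submergence replicate 2. The cause was not tested. Of 46 calls of named genes other than the members in flooding, 30 held under every alternative tried for them, and of 31 in submergence, 10 did; none turned direction. The longer W-box core with a leading T was found in 0 members and 14.02% of genes.

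Over all genes, a fold change of at least 1.5 left 1513 lower in flooding and 669 lower in submergence. No filter on low values left 769 higher and 773 lower in submergence, and 2 higher and 2 lower in flooding against submergence. In that comparison all 9 samples in one fit called 90 higher and 141 lower, none of them a member, and eBayes without trend called 1 lower. Leaving out each sample gave between 1643 and 3436 lower in flooding, between 890 and 2019 higher and between 489 and 2187 lower in submergence, and between 0 and 4 higher and 0 and 2 lower in flooding against submergence.

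Whether the replicate numbers pair the samples was not settled. Correlations of deviations ran from -0.15 to 0.47 between same-numbered samples and from -0.50 to 0.37 between samples of different number. In flooding against submergence those of same-numbered samples were all above 0 (0.06, 0.16 and 0.47 for replicates 1, 2 and 3). With the replicate block, 4 members were called higher in flooding and 1 in submergence, and over all genes 1011 were lower in submergence.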
